A study of Mus musculus with 2 samples.

Results

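Chemokine genes are described here in the lung of 1 control and 1 *Gli1* HHIPCKO mouse. The members are the features whose symbol is Ccl, Cxcl, Cx3cl or Xcl followed by a number and at most 1 letter, which gave 44 of the 32285 features counted. They comprised 30 Ccl features, 12 Cxcl features, *Cx3cl1* and *Xcl1*, under 38 distinct symbols, since 5 symbols stood on more than 1 feature. In the cells kept, 21 members had at least 100 unique molecular identifiers (UMIs, counted molecules) over both libraries. Another 14 had fewer and 9 had none.

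Chemokines are small secreted proteins that direct the migration of leukocytes and other cells through G protein-coupled receptors. Some are made constitutively and position cells in tissue, such as *Cxcl12*, the ligand of *Cxcr4*. Others are induced during inflammation, such as *Cxcl1* and *Cxcl2*, which recruit neutrophils, and *Ccl2*, which recruits monocytes. In the mouse lung, *Cxcl15* (lungkine) is a chemokine of the airspace epithelium.

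Both mice carried *Gli1*creERT/+ and *Hhip*flox/flox and were taken at postnatal day 14. The control received oil and the *Gli1* HHIPCKO mouse received tamoxifen, each once a day for 3 days from birth. *Hhip*, a gene for an extracellular inhibitor of hedgehog ligands, is thereby deleted in cells in which *Gli1*, a hedgehog target gene, was active then. The deletion passes to cells that descend from them, whether or not *Gli1* is active at day 14. Tamoxifen was given to 1 mouse only, and its own effect cannot be told apart from that of the deletion. Stromal and epithelial cells, sorted to exclude CD31+ endothelial and CD45+ immune cells, were pooled with stromal cells in excess, and 1 single-cell library was made per mouse.

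The deposited files held 10999 control and 12350 *Gli1* HHIPCKO cell barcodes, of which 10917 and 12115 were kept, with medians of 3537 and 3774 UMIs per cell. Of the barcodes, 193 occurred in both libraries. Cells were clustered without the chemokine genes, and the class names below stand for cells that resemble the named type by its markers. They include alveolar myofibroblasts (ALMFs), ductal myofibroblasts (DMFs), alveolar and adventitial fibroblasts, pericytes and alveolar type 2 epithelial cells (AT2s). All 12 ALMF and all 12 DMF markers were more than 2-fold above the level in the other cells of both libraries. The classes were named from these same markers, so this describes the classes and does not test their names. The level of *Hhip* in DMFs was 2011 CPM (UMIs per 1000000 UMIs of the class) in the control and 449 CPM in *Gli1* HHIPCKO, and in ALMFs 242 and 182 CPM. The mice also differed in *Xist*, the RNA that silences an X chromosome in female cells, with 12 and 14062 UMIs. Sex cannot be told apart from tamoxifen or the deletion. ALMFs and DMFs fell into clusters that held mostly cells of 1 library, and 1778 control and 2169 *Gli1* HHIPCKO cells lay in clusters without a name and enter no class. With 1 mouse in each group no test was possible. All intervals below are exact and at 95%, cover counting error only, and do not include the spread between mice.

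The 4 members on which most of the values below turn lie on different chromosomes. *Cxcl14* is at chr13:56288643-56296551 on the minus strand, *Ccl19* at chr4:42754525-42756577 on the minus strand, *Cxcl12* at chr6:117168535-117181367 on the plus strand and *Cxcl15* at chr5:90794534-90803067 on the plus strand (GRCm38, GENCODE vM21). Their promoters are shown as the 250 bases before the gene start in RefSeq (GRCm38.p6), at chr13:56296552-56296801, chr4:42756366-42756615, chr6:117168285-117168534 and chr5:90794284-90794533, each read 5′ to 3′ on the strand of the gene. The RefSeq and GENCODE starts of *Ccl19* differ, so most of its window lies inside the gene as placed above. Positions in the windows count from the RefSeq start. Capitals mark a TATA box (TATAAA), an NF-kB site in 1 form of 9 letters (GGGNNTTCC), a GLI site (GACCACCCA) or a GC box (GGGCGG) on either strand. Other forms of the NF-kB site were not searched for, so its counts below are of this form only.
Cxcl14: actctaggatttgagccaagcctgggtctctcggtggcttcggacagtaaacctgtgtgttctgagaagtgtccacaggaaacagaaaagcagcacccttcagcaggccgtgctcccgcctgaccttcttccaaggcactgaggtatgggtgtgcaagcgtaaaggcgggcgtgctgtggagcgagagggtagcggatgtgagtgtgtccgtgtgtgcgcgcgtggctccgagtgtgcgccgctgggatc
Ccl19: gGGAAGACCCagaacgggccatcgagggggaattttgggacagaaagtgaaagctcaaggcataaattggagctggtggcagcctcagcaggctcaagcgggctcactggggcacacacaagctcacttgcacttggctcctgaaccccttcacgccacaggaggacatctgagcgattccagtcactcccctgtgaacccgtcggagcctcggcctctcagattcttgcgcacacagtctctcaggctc
Cxcl12: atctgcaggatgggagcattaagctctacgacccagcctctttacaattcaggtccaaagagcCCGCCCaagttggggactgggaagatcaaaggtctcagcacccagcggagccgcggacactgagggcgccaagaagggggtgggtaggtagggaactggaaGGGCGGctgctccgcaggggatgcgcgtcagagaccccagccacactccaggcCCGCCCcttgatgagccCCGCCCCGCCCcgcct
Cxcl15: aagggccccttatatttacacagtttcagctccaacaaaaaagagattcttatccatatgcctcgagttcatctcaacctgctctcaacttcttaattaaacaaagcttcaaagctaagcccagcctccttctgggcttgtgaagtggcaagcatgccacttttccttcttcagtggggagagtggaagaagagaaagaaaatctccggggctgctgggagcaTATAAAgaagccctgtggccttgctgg
The *Cxcl14* window held none of the 4 motifs. The *Ccl19* window held 1 NF-kB site on the minus strand from -249 to -241, the *Cxcl15* window held a TATA box from -27 to -22, and the *Cxcl12* window held GC boxes, of which the last 2 before the start share 1 base. Of 32851 promoters of this length, 12.4% held the TATA box, 4.98% the NF-kB site, 0.225% the GLI site and 32.7% the GC box. Of 34 promoters of chemokine genes, which covered 27 of the 38 symbols, 10 held the TATA box, 5 the NF-kB site, 5 the GC box and 0 the GLI site. A match of letters describes the window and does not show a bound site.

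*Cxcl15* was the most abundant chemokine RNA of both libraries. It took 137264 of 158601 chemokine UMIs in the control (86.5%) and 147477 of 175734 in *Gli1* HHIPCKO (83.9%). In AT2s its level was 6832 CPM (interval, 6793 to 6870) in the control and 6161 CPM (6126 to 6195) in *Gli1* HHIPCKO. At least 1 *Cxcl15* UMI was found in 99.8% of control and 99.7% of *Gli1* HHIPCKO AT2s, with medians of 31 and 34 UMIs per cell. The log2 ratio of the levels (*Gli1* HHIPCKO over control) was -0.15, from -0.16 to -0.14. In the 4 fibroblast and myofibroblast classes *Cxcl15* lay between 28.3 and 63.3 CPM, and at most 1 cell of each class and library held 5 or more UMIs. In mesothelial cells it was 829 CPM in the control and 1299 CPM in *Gli1* HHIPCKO, where 94.6% of the UMIs lay in the tenth of cells with the most in both libraries. *Sftpc*, the surfactant protein gene that defines AT2s, was at 40762 and 47470 CPM in the same mesothelial cells, and its part in these levels was not tested.

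The other members were highest in different classes, read from the level over both libraries among classes with at least 100 cells. *Cxcl14* was highest in alveolar fibroblasts. *Ccl11*, *Ccl8* and *Cxcl1* were highest in adventitial fibroblasts, *Ccl19*, *Cxcl16* and *Ccl27a* in DMFs, *Cxcl13* and *Ccl25* in pericytes, and *Cxcl17* in ciliated cells. In *Gli1* HHIPCKO alone, *Ccl19* was at 26.9 CPM in ALMFs and 20.5 CPM in DMFs, *Cxcl16* at 44.2 and 42.1 CPM, and *Ccl27a* at 71.3 CPM in peribronchial and airway smooth muscle and 67.4 CPM in DMFs. *Cxcl16* was highest in DMFs under 1 of 6 other clusterings and in ALMFs under the rest. *Cxcl12*, *Cx3cl1*, *Ccl21a* and *Cxcl2* were highest in the remaining endothelial cells, and *Ccl2*, *Ccl3*, *Ccl4*, *Ccl5*, *Ccl6* and *Ccl9* in the remaining immune cells. In *Gli1* HHIPCKO alone *Cxcl12* was at 330.5 CPM in endothelial cells and 330.4 CPM in adventitial fibroblasts. *Cxcl12*, *Ccl27a* and *Ccl5* kept their class under 3 of 6 other clusterings, and *Ccl25* under 2 of 6. The class stayed the same under all 6 other clusterings for 9 of these 21 genes, among them *Cxcl14*, *Cxcl15*, *Ccl11* and *Ccl21a*. The endothelial and immune cells are those left after a sort that excluded CD31 and CD45, and their numbers do not measure such cells in the lung.

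**Figure D1:**
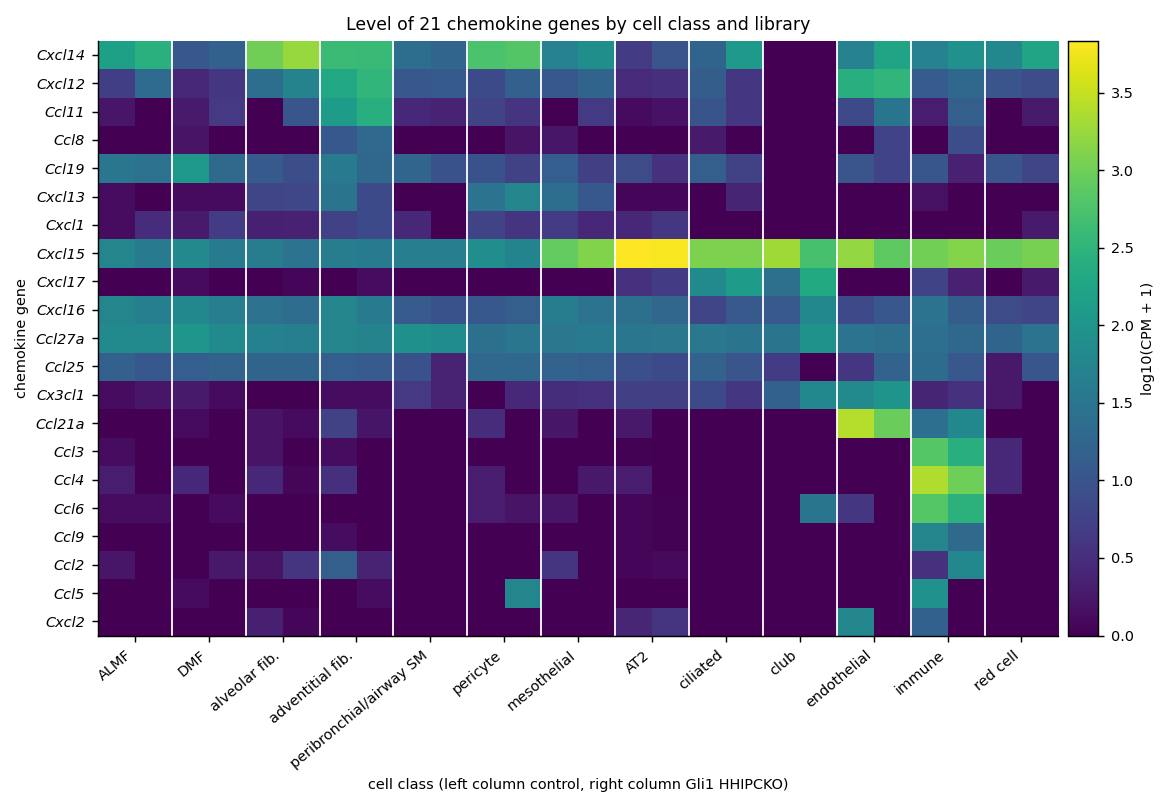
Level of the 21 chemokine genes with at least 100 UMIs (rows) in 13 cell classes (paired columns, control left and *Gli1* HHIPCKO right), as log10(CPM + 1) by colour. *Cxcl15* is brightest in AT2s, *Cxcl14* in alveolar fibroblasts, and *Ccl3*, *Ccl4*, *Ccl6* and *Ccl9* in immune cells.

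*Cxcl14*, a conserved homeostatic chemokine, had the most UMIs of any member in the stroma. In alveolar fibroblasts 1672 UMIs in 486 control cells gave 998 CPM (951 to 1047), and 11189 UMIs in 1753 *Gli1* HHIPCKO cells gave 1721 CPM (1689 to 1753). The intervals did not overlap, and the log2 ratio was 0.79 (0.71 to 0.86), below 2-fold. With genes centred within library, which left 319 control and 1352 *Gli1* HHIPCKO cells in the class, it was 1.41. Cells with a *Cxcl14* UMI made up 68.5% of control and 86.5% of *Gli1* HHIPCKO alveolar fibroblasts. After thinning to 2000 UMIs a cell, without the 113 and 337 cells below that depth, the shares stood at 65.1% (60.1 to 70.0) and 85.5% (83.6 to 87.3). The 90th percentile was 9 UMIs per cell in the control and 15 in *Gli1* HHIPCKO. Each of the 4 alveolar fibroblast clusters was higher in *Gli1* HHIPCKO, from 1164 to 1950 CPM in the cluster with most cells and from 583 to 1439 CPM in the cluster with the largest log2 ratio, 1.30 (0.91 to 1.73).

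In the whole library *Cxcl14* stood at 116 CPM in the control and 339.8 CPM in *Gli1* HHIPCKO. On the log2 scale the ratio was 1.55 (1.51 to 1.60). Alveolar fibroblasts were 4.45% of control cells and 14.5% of *Gli1* HHIPCKO cells, and they held 33.5% and 63.6% of the *Cxcl14* UMIs. Per 1000 cells, the control had 458 and *Gli1* HHIPCKO 1452 *Cxcl14* UMIs. The control levels of each class combined with the cell shares of *Gli1* HHIPCKO would give 810 per 1000 cells, and the reverse combination 805. Cell shares in these libraries follow the dissociation, the sort and the mixing as well as the lung.

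*Cxcl14* in the other stromal classes was lower. In pericytes it was 569 CPM in the control and 633 CPM in *Gli1* HHIPCKO, and in adventitial fibroblasts 414 and 377 CPM, with log2 ratios of 0.15 and -0.14. The adventitial ratio changed sign with the libraries clustered separately, to 0.86, with genes centred within library, to 0.43, and with cells named one by one, to 0.01. The adventitial clusters went apart, since 1 was at 769 and 582 CPM (log2 ratio -0.40, interval -0.55 to -0.25) and another at 461 and 696 CPM (0.60, 0.40 to 0.79). In ALMFs it was 152 CPM (138 to 167) and 266 CPM (248 to 286), with the log2 ratio at 0.81 (0.64 to 0.98). That ratio was 0.15 with the libraries clustered separately and 1.29 with chemokine genes kept in clustering. The share of ALMFs with a UMI was 19.7% and 21.4%, with overlapping intervals, whereas cells with 5 or more UMIs numbered 24 of 953 in the control and 55 of 927 in *Gli1* HHIPCKO. The 10 alveolar fibroblast markers summed to 106 CPM in control ALMFs and 389.5 CPM in *Gli1* HHIPCKO ALMFs, and none of the 10 was at 0 in either library. Of the 7 with at least 50 UMIs, 5 were at least 2-fold higher and 1 at least 2-fold lower. In DMFs *Cxcl14* was at 10.1 and 14.3 CPM. In red cells, which should not make it, *Cxcl14* was at 60.6 CPM in the control and 174 CPM in *Gli1* HHIPCKO, with median depths of 5006 and 5299 UMIs, and their alveolar fibroblast markers summed to 364 and 1228 CPM. Cells with a *Cxcl14* UMI were 6.48% and 23.1% of red cells. The median log2 ratio of all 3019 genes measured in red cells was 0.66. In ciliated cells *Cxcl14* was at 15.9 and 114 CPM (log2 ratio 2.83, 2.07 to 3.66), and alveolar fibroblast markers summed to 856 and 1316 CPM. In endothelial cells *Cxcl14* was at 48.8 and 170 CPM (1.80, 0.90 to 2.76), and these markers summed to 736 and 2048 CPM. The part of free RNA or mixed cells in the ALMF difference was not tested.

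*Cxcl12*, which retains leukocytes and progenitors that carry *Cxcr4*, was highest among the stromal classes in adventitial fibroblasts. There 617 UMIs in the control gave 197 CPM (182 to 213) and 983 UMIs in *Gli1* HHIPCKO gave 330.4 CPM (310.1 to 352). The log2 ratio was 0.75 (0.60 to 0.89), and cells with a UMI were 35.0% and 50.2% of the class. All 3 adventitial clusters were higher in *Gli1* HHIPCKO, at 383 and 558 CPM, 108 and 172 CPM, and 63.8 and 162 CPM. In alveolar fibroblasts *Cxcl12* was at 23.3 CPM (39 UMIs) in the control and 50.6 CPM (329 UMIs) in *Gli1* HHIPCKO, with the log2 ratio at 1.12 (0.64 to 1.64). With the libraries clustered separately that ratio was -0.17. In ALMFs it was at 4.08 CPM (12 UMIs) and 21.1 CPM (61 UMIs), with the log2 ratio at 2.37 (1.46 to 3.40), the largest of any member in ALMFs. No ALMF held more than 3 *Cxcl12* UMIs. The 11 adventitial fibroblast markers summed to 100.3 and 316 CPM in the same ALMFs, with 5 of the 7 that had at least 50 UMIs at least 2-fold higher and none at 0. Red cells were at 9.25 and 6.98 CPM. In endothelial cells, 82 and 66 UMIs gave 250.3 CPM (199 to 311) and 331 CPM (256 to 420.5), with overlapping intervals.

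*Ccl11* (eotaxin-1, which recruits eosinophils) came mainly from adventitial fibroblasts, which held 80.7% of its UMIs in the control and 69.4% in *Gli1* HHIPCKO. It was at 133 CPM (120.1 to 146) in the control and 263 CPM (244 to 282) in *Gli1* HHIPCKO, with the log2 ratio at 0.99 (0.81 to 1.16), which is 1.98-fold and falls just short of 2-fold. Cells with a UMI were 20.5% and 36.4% of the class, and 15.6% and 28.0% after thinning. The log2 ratio was 2.91 in the cluster with the lowest control level, from 15.4 to 115 CPM, and 0.43 in the cluster with the highest, from 289 to 389 CPM. In alveolar fibroblasts there were 0 *Ccl11* UMIs in 486 control cells, which allows up to 1.79 CPM, and 63 UMIs in 34 of 1753 *Gli1* HHIPCKO cells, or 9.69 CPM. With 3 counts in place of 0 the log2 ratio was 2.44, and the exact interval for counting error began at 2.10. With the libraries clustered separately, which placed 75 *Ccl11* UMIs in control alveolar fibroblasts, the ratio was -1.29. In the cluster without a name that is described with *Ccl19* below, *Ccl11* had 6 UMIs (8.56 CPM) in the control and 78 (111 CPM) in *Gli1* HHIPCKO. *Ccl8*, which lies in the same stretch of chromosome 11 as *Ccl11* and attracts monocytes and other leukocytes, was at 10.2 CPM (32 UMIs) and 19.5 CPM (58 UMIs) in adventitial fibroblasts, with the log2 ratio at 0.93 (0.28 to 1.60).

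**Figure D2:**
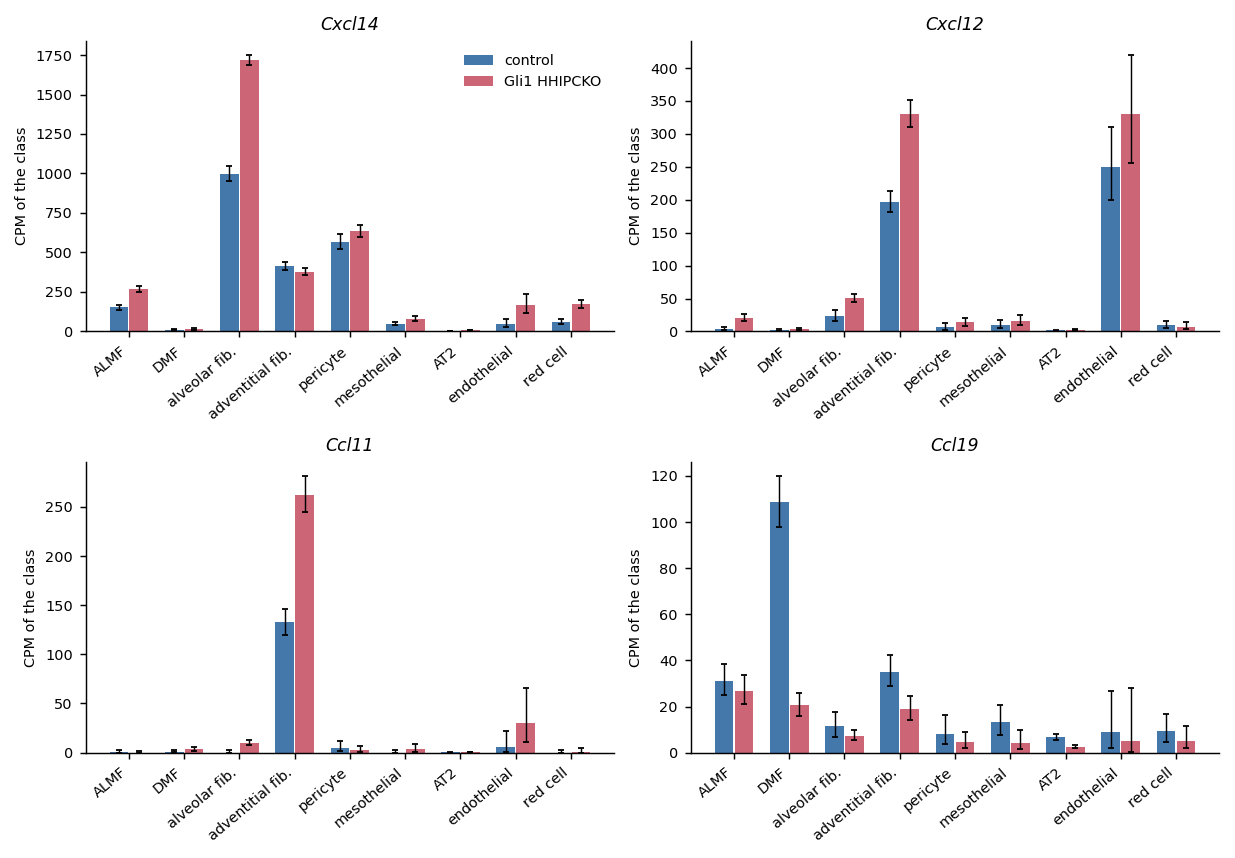
Level in CPM (bars from 0) of *Cxcl14*, *Cxcl12*, *Ccl11* and *Ccl19* in 9 cell classes of the control (blue) and *Gli1* HHIPCKO (red) library, with exact Poisson intervals at 95% that cover counting error only. *Cxcl14* in alveolar fibroblasts and *Cxcl12* and *Ccl11* in adventitial fibroblasts stand higher in *Gli1* HHIPCKO, and *Ccl19* in DMFs stands at 109 CPM in the control and 20.5 CPM in *Gli1* HHIPCKO.

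*Ccl19*, a ligand of *Ccr7* that guides T cells and dendritic cells, was lower in *Gli1* HHIPCKO DMFs. In DMFs 377 UMIs in 1319 control cells gave 109 CPM (97.8 to 120.1), and 73 UMIs in 1172 *Gli1* HHIPCKO cells gave 20.5 CPM (16.1 to 25.8). The log2 ratio was -2.40 (-2.79 to -2.04). Cells with a UMI were 21.8% of control and 5.55% of *Gli1* HHIPCKO DMFs, and 18.3% (15.9 to 20.8) and 3.03% (2.06 to 4.30) after thinning. No DMF held more than 4 UMIs. In red cells *Ccl19* was at 9.25 and 5.24 CPM, with a UMI in 4.63% and 2.56% of cells. In all 13 alternative settings the DMF ratio stayed between -2.78 and -2.04. In ALMFs *Ccl19* was at 31.3 and 26.9 CPM, and the log2 ratio of -0.22 (-0.67 to 0.24) had an interval that included 0. Under some clusterings it was between -1.55 and -1.05. A cluster without a name, closest to ALMFs by its markers, held 470 control cells with 197 *Ccl19* UMIs (106 CPM) and 33 *Gli1* HHIPCKO cells with 4 (29.9 CPM).

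The highest *Ccl19* levels were not in a named class. In a cluster with 255 control and 257 *Gli1* HHIPCKO cells, closest to pericytes by its markers but left without a name, *Ccl19* was at 299.8 CPM (210 UMIs) in the control and 363 CPM (256 UMIs) in *Gli1* HHIPCKO. There 127 and 125 cells had a UMI, 49.8% and 48.6% of the cluster, and the log2 ratio was 0.28 (0.01 to 0.55). Its ratio and that of DMFs had opposite signs, and the difference between them was not tested. Adventitial fibroblasts had 110 *Ccl19* UMIs in the control, of which 34 lay in 1 cell, and 56 in *Gli1* HHIPCKO, with the log2 ratio at -0.90, or -0.47 without the top cell of each library. In AT2s *Ccl19* was at 6.85 and 2.57 CPM, with the log2 ratio at -1.41 (-1.91 to -0.93). Of these UMIs, 114 of 121 and 49 of 52 lay in 1 AT2 cluster, in which DMF markers summed to 1531 CPM, against 58.8 and 62.2 CPM in the other 2 AT2 clusters. With cells named one by one the AT2 ratio was -0.88, and without doublets fewer than 50 UMIs remained, so that no ratio was formed. The part of DMF RNA in the AT2 value was not tested.

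*Cxcl13*, a ligand of *Cxcr5* that attracts B cells, shows how much a single cell can weigh. In adventitial fibroblasts it was at 28.4 CPM (89 UMIs) in the control and 6.39 CPM (19 UMIs) in *Gli1* HHIPCKO, with the log2 ratio at -2.15, but 75 of the 89 UMIs came from 1 cell. Without the top cell of each library the ratio was 0.27. In pericytes 27 UMIs (28.0 CPM, 18.4 to 40.7) and 93 UMIs (54.1 CPM, 43.6 to 66.2) were spread over 22 and 62 cells, and the log2 ratio was 0.95 (0.32 to 1.63), or 1.05 without the top cells. Mesothelial cells had 32 and 12 UMIs.

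**Figure D3:**
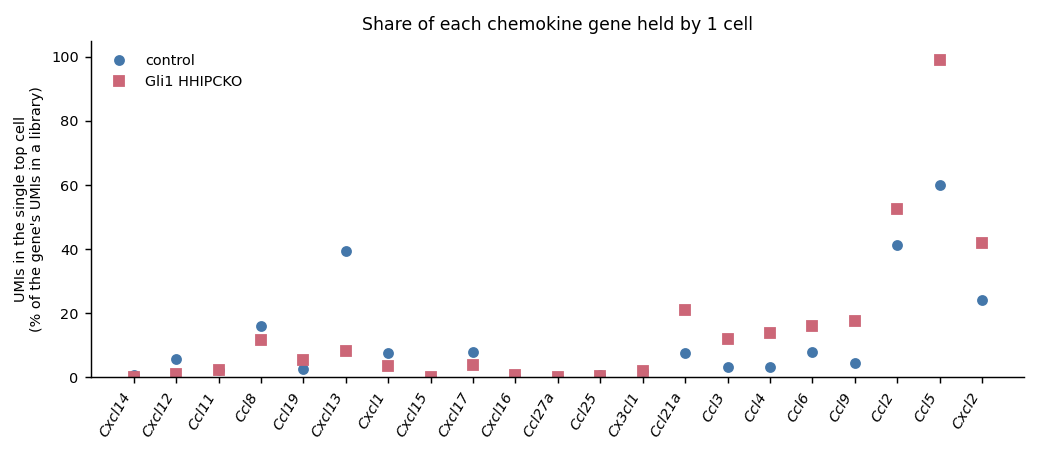
Share of each chemokine gene's UMIs in a library that lay in its single top cell, in percent, for the control (circles) and *Gli1* HHIPCKO (squares). *Ccl5* reaches 59.9% in the control and 96 of 97 UMIs in *Gli1* HHIPCKO, *Ccl2* 41.4% and 52.7%, and *Cxcl13* 39.5% in the control, whereas *Cxcl14*, *Cxcl15*, *Cxcl16*, *Ccl25* and *Ccl27a* stay below 1%.

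*Ccl5* had 167 UMIs in the control, of which 100 lay in 1 cell, and 97 in *Gli1* HHIPCKO, of which 96 lay in 1 cell that clustered with the pericytes. Its log2 ratio in pericytes, 4.17 with 3 counts in place of 0 and an exact interval from 3.84, rests on that cell. In immune cells *Ccl5* had 166 UMIs in 5 control cells and 0 in *Gli1* HHIPCKO. In the same way 49 of 93 *Ccl2* UMIs in *Gli1* HHIPCKO lay in 1 immune cell and 24 of 58 in the control in 1 adventitial cell. *Cxcl2* was highest in endothelial cells by the level over both libraries, where all 19 UMIs lay in 1 control cell. In AT2s *Cxcl2* had 28 and 56 UMIs, of which 28 in *Gli1* HHIPCKO lay in 1 cell, and *Cxcl1* had 29 and 61 UMIs, at 1.64 and 3.02 CPM, with the log2 ratio at 0.88 (0.22 to 1.57). *Cxcl1* was highest in adventitial fibroblasts, at 4.79 and 6.39 CPM, and over the whole library at 2.16 and 3.86 CPM.

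The inflammatory CC chemokines *Ccl3*, *Ccl4*, *Ccl6* and *Ccl9*, which lie in 1 stretch of chromosome 11 and bind receptors of monocytes, macrophages and other leukocytes, were found mostly in 1 immune cluster of 195 control and 67 *Gli1* HHIPCKO cells, with 4673 of the 4674 *Ccl4* UMIs of control immune cells and all 784 of *Gli1* HHIPCKO. In the immune class *Ccl4* was at 2391 CPM in the control and 975.3 CPM in *Gli1* HHIPCKO, *Ccl3* at 671 and 256 CPM, *Ccl6* at 659 and 286 CPM, and *Ccl9* at 55.3 and 19.9 CPM. Their log2 ratios were -1.29, -1.39, -1.20 and -1.47, and after thinning -0.76, -0.91, -0.53 and -0.59. With the libraries clustered separately the *Gli1* HHIPCKO immune class held 0 UMIs of *Ccl4*, *Ccl6* and *Ccl9* and 1 of *Ccl3*, and at resolution 0.5 the immune class held at most 1 UMI of each gene in either library. Within the cluster the levels were held by a part of the cells. In the control 80 of 195 cells had 10 or more *Ccl4* UMIs, with a median of 56.5, and in *Gli1* HHIPCKO 14 of 67 had as many, with a median of 45.5. All 80 and all 14 also had *Ccl3*, and 78 and 14 also had *Ccl6*. Such cells were thus 80 of 195 and 14 of 67, and they are cells that the sort was meant to exclude.

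Genes of these cells were looked up after their values were seen. *Tyrobp*, an adaptor of myeloid and natural killer receptors, was in all 80 control and all 14 *Gli1* HHIPCKO cells, and *Fcer1g*, the gamma chain of the IgE receptor, in 77 and 14. *Gata2*, a transcription factor, was found in 62 and 10 cells, *Ms4a2*, the beta chain of the IgE receptor, in 49 and 11, and *Mcpt8*, a protease of basophils, in 49 and 6. *Mcpt8* was in none of the other 115 and 53 cells of the cluster. *Cd200r3* was in 32 and 4 of the cells with 10 or more *Ccl4* UMIs, and in 1 and 2 of the others. *Cpa3* was in 19 and 2 of these cells, and in 1 and 5 of the others. In *Gli1* HHIPCKO its level was 44.5 CPM in these cells and 143 CPM in the others, and in the control 144 and 26.2 CPM. The macrophage genes *C1qa* and *C1qb* were in none of the cells with 10 or more *Ccl4* UMIs and in 16.5% to 32.1% of the others. Other genes of the macrophage list were not all absent from the cells with 10 or more. *Adgre1* was in 8 control and 1 *Gli1* HHIPCKO cell of these, and in 6 and 4 of the others. *Csf1r* was in 1 and 0 of these, and in 14 and 10 of the others. *Osm* and *Csf1*, for cytokines, were in 75 and 76 of the 80 control cells and in 13 and 12 of the 14 *Gli1* HHIPCKO cells, and *Il6* in 43 and 9.

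**Figure D4:**
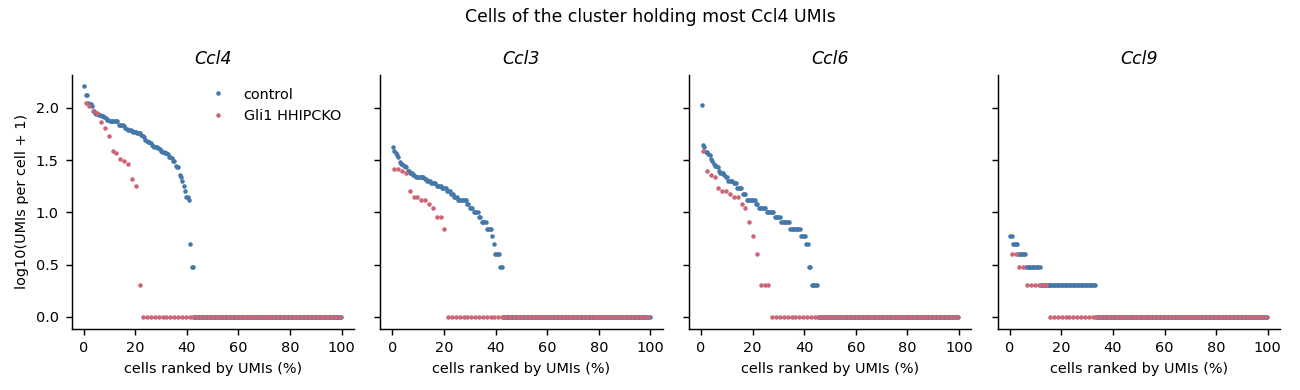
UMIs per cell, as log10(UMIs + 1), of *Ccl4*, *Ccl3*, *Ccl6* and *Ccl9* in the 195 control (blue) and 67 *Gli1* HHIPCKO (red) cells of the cluster with most *Ccl4* UMIs, each library ranked from the highest cell. Cells run along the x axis by rank in percent, and 80 of 195 control and 14 of 67 *Gli1* HHIPCKO cells hold 10 or more *Ccl4* UMIs.

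*Ccl21a*, a *Ccr7* ligand made by lymphatic endothelium, was at 2537 CPM in the control and 901 CPM in *Gli1* HHIPCKO endothelial cells. All 831 of its control UMIs in that class and 179 of 180 in *Gli1* HHIPCKO lay in 1 endothelial cluster of 33 and 8 cells, where its level was 13048 and 11503 CPM and every cell had a UMI. The class value differed together with the number of these cells, 33 and 8. *Ccl21a*, *Ccl19* and *Ccl27a* have near-identical copies on unplaced scaffolds that counted 0 or 1 UMI, and how reads shared between copies were counted makes their levels uncertain.

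*Cxcl17*, a mucosal chemokine, was at 66.4 CPM (52.3 to 83.3) in control and 126 CPM (100.1 to 156) in *Gli1* HHIPCKO ciliated cells, with the log2 ratio at 0.92 (0.45 to 1.39), with a UMI in 18.0% and 32.0% of cells. *Cx3cl1*, a membrane-bound chemokine, was at 64.1 and 95.1 CPM in endothelial cells, with overlapping intervals, and at 4.42 and 4.36 CPM in AT2s. *Cxcl16*, the other membrane-bound chemokine, was lower in *Gli1* HHIPCKO in DMFs (60.2 and 42.1 CPM, log2 ratio -0.51), in adventitial fibroblasts (54.3 and 37.0 CPM, -0.55) and in AT2s (24.7 and 17.4 CPM, -0.51). In ALMFs it was at 55.4 and 44.2 CPM, with an interval that included 0. *Ccl27a* was found at a low level in all classes, at most 101 CPM, as was *Ccl25*, and no cell of any class had more than 4 UMIs of *Ccl27a* or 3 of *Ccl25*. Both genes overlap a gene on the opposite strand, *Il11ra1* for *Ccl27a* and *Elavl1* for *Ccl25*, with 14741 and 5368 UMIs. The study's methods name default settings of CellRanger and do not say how strand was used in counting.

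Of the 14 members seen with fewer than 100 UMIs, 7 had 10 to 99 and 7 had 1 to 9. *Cxcl10*, an interferon-induced ligand of *Cxcr3* that is named after its values were seen, had 18 UMIs in the control and 67 in *Gli1* HHIPCKO, of which 24 lay in 1 cell. The 9 members without a UMI were *Xcl1*, *Ccl26* and 7 copies of *Ccl19*, *Ccl21b*, *Ccl21c* and *Ccl27a*.

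In each of 6 classes, ALMFs, DMFs, alveolar and adventitial fibroblasts, pericytes and AT2s, at most 2 members were past 2-fold in either direction. At least 50 UMIs over both libraries were required. Of 7 members measured in ALMFs, 1 (*Cxcl12*) was at least 2-fold higher in *Gli1* HHIPCKO and 0 were 2-fold lower, beside 3.64% and 2.05% of all genes measured. In DMFs 0 of 6 were higher and 1 (*Ccl19*) was lower, beside 2.58% and 2.3%. In alveolar fibroblasts 2 of 8 (*Cxcl12* and *Ccl11*) were higher and 0 lower, beside 1.9% and 1.68%. In adventitial fibroblasts 0 of 10 were higher and 1 (*Cxcl13*) was lower, beside 1.77% and 1.36%. In pericytes 1 of 6 (*Ccl5*) was higher and 0 lower, beside 2.23% and 0.713%. In AT2s 1 of 12 (*Cxcl14*, at 3.85 and 9.36 CPM) was higher and 1 (*Ccl19*) lower, beside 1.6% and 1.14%. Of the *Cxcl14* UMIs of AT2s, 43 of 68 and 115 of 189 lay in the AT2 cluster with the high DMF markers. ALMF markers summed to 1665 CPM in that cluster as well, against 185 and 177 CPM in the other 2 AT2 clusters. Its alveolar fibroblast markers were at 364 CPM, against 476 and 380 CPM in the other 2. Over all AT2s, alveolar fibroblast markers summed to 369.5 CPM in the control and 482 CPM in *Gli1* HHIPCKO. The part of RNA from any of these cell types in this call was not tested. After thinning the AT2 *Cxcl14* ratio was 0.85. These are counts of 1 or 2 genes, and the calls of *Cxcl13* and *Ccl5* rest on 1 cell each. The median log2 ratio of the members measured was -0.22 in ALMFs, -0.55 in DMFs, -0.04 in alveolar fibroblasts, -0.15 in adventitial fibroblasts, 0.25 in pericytes and 0.03 in AT2s, where the median of all genes measured lay between -0.03 and 0.05.

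**Figure D5:**
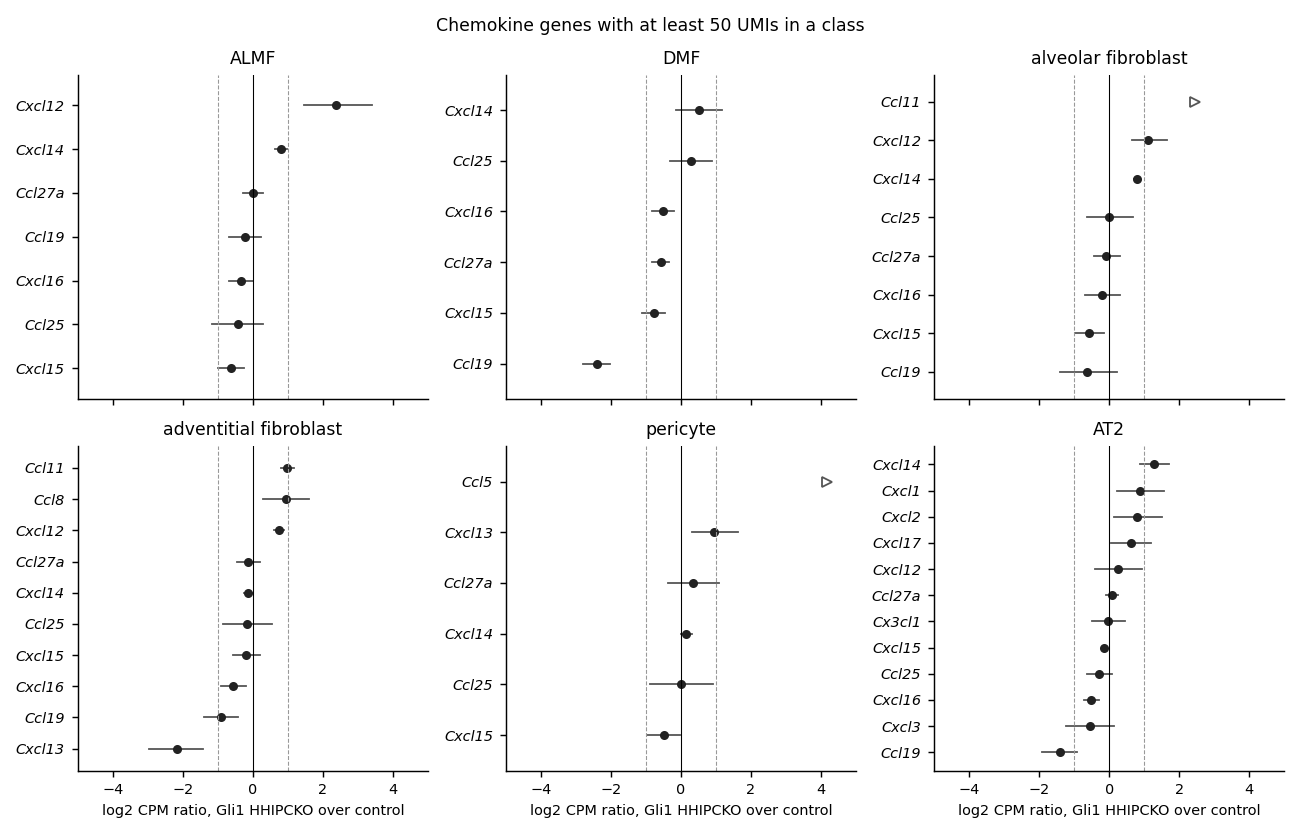
log2 ratio of CPM (*Gli1* HHIPCKO over control) for each chemokine gene with at least 50 UMIs in 6 cell classes, with exact 95% intervals for counting error as lines and bounds against a limit of 3 counts as open triangles. Dashed lines mark 2-fold, and *Ccl19* in DMFs (-2.40) and *Cxcl12* in ALMFs (2.37) lie well outside them, whereas *Ccl5* in pericytes and *Cxcl13* in adventitial fibroblasts rest on 1 cell each.

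The chemokine receptors were barely measured in these cells. Of 23 receptor genes, 1 or 2 reached 50 UMIs in each of the 6 classes, and 0 were past 2-fold there. They were *Ccrl2*, a receptor that binds without signalling, in all 6, *Ackr3*, a scavenger of *Cxcl12*, in DMFs and adventitial fibroblasts, and *Cxcr4* in pericytes. In the immune class *Cxcr2*, the receptor of *Cxcl1* and *Cxcl2*, had 49 UMIs in the control and 1 in *Gli1* HHIPCKO. Of the 80 control cells with 10 or more *Ccl4* UMIs, 33 had a *Cxcr2* UMI, against 1 of the 14 in *Gli1* HHIPCKO.

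Of 25 genes of the NF-kB and IL-1/TNF pathway, which induces many inflammatory chemokines, 18 to 22 were measured in ALMFs, DMFs, alveolar and adventitial fibroblasts and AT2s, and at most 1 a class was past 2-fold. *Nfkbia*, the inhibitor of NF-kB that NF-kB itself induces, was at 301 and 603 CPM in DMFs (log2 ratio 1.00) and at 143 and 349.6 CPM in adventitial fibroblasts (1.29). In ALMFs it fell just short of 2-fold, at 332 and 631 CPM (0.93). In red cells *Nfkbia* was at 42.1 and 175 CPM (2.05), where the median log2 ratio of all genes measured was 0.66. In AT2s *Nfkbia* was at 117 and 181 CPM (0.63). Of 11 genes measured in pericytes, *Nfkbia* was past 2-fold as well, at 235 and 473 CPM (1.01), a class the naming rule leaves out and that was added after its values were seen. *Birc3*, an inhibitor of apoptosis, was at 8.16 and 17.6 CPM in ALMFs (1.11). The median log2 ratio of the list lay between -0.05 and 0.14 in these classes. Of 15 interferon response genes, *Irf9* was higher in ALMFs (7.48 and 15.9 CPM, log2 ratio 1.09) and *Gbp2* lower in AT2s (2.15 and 0.594 CPM, -1.86). In pericytes *Irf1* (37.3 and 18.6 CPM) and *Ifit3* (36.2 and 12.8 CPM) were lower, likewise added after their values were seen. Of 15 other cytokine genes, *Tslp*, for an epithelial and stromal alarmin, was higher in ALMFs, at 6.80 CPM (20 UMIs) and 28.0 CPM (81 UMIs), with the log2 ratio at 2.04 (1.32 to 2.83), and in DMFs, at 7.20 and 19.4 CPM, with the log2 ratio at 1.43 (0.75 to 2.15). *Csf1*, the growth factor of macrophages, was lower in alveolar fibroblasts, at 59.1 and 23.7 CPM (log2 ratio -1.32). Of *Pf4* and *Ppbp*, chemokines whose symbols the rule does not take, *Pf4* reached 50 UMIs in AT2s, with a log2 ratio of 0.54.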

How the data were processed

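The authors deposited raw UMI counts per gene and cell for 2 lung libraries, 1 mouse each, made with CellRanger 6.1.0 per the file headers (the submitters' processing notes name Cell Ranger 3.1.0) against mm10. The labels name a 3′ kit, whereas the series' design and the study's methods name a 5′ kit. The study's methods also name CellRanger 6.1.0, run with default settings. The cells used had 200 to 6000 genes and no more than 10% of UMIs from mitochondrial genes. After scaling to 10000 a cell, 2000 variable genes without chemokine genes gave 30 principal components, 20 neighbours and Leiden clusters at resolution 1. Clusters were named from marker lists by thresholds set after the clusters were seen, and the fibroblast markers come largely from the study, which chose them on these samples. Doublets were left in, and an alternative removes them.

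UMIs were summed per class and library and divided by the class total (CPM). Ratios needed at least 50 UMIs, and called means 2-fold. A count of 0 was read as a limit of 3 counts. Intervals were exact Poisson for levels and exact binomial for shares and ratios. All members with at least 100 UMIs were named with their class of highest level, as were genes of the pathway lists past 2-fold in ALMFs, DMFs, both fibroblast classes or AT2s. The members and lists were chosen with earlier results of these data known. On Poisson counts simulated per class, 95.4% of intervals in DMFs and 96.3% in adventitial fibroblasts held the set value. The simulation shares the counting model of the intervals and has no UMIs gathered in single cells. It therefore cannot show how the intervals do for genes whose UMIs lie in few cells. Work was done in Python 3.11.15 with igraph 0.11.9, leidenalg 0.10.2, scikit-learn 1.9.0, scipy 1.17.1, numpy 2.4.6, matplotlib 3.10.9 and pandas 2.3.3.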

Additional observations from a re-analysis of the deposited data

How the results depend on the processing

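No paired analysis was possible because each condition had 1 mouse. Beside 11 other settings, 2 were added after seeing the data, the top cell of each gene left out and clusters without a name counted by their best class. Of 676 alternative values of single genes, 542 lay within the interval of the reported value, and 3 values past 2-fold reversed, namely *Cxcl12* (-0.17) and *Ccl11* (-1.29) in alveolar fibroblasts with the libraries clustered separately and *Ccl5* in immune cells (0.48) at resolution 2, and the cause was not tested. The 676 values cover levels of genes in their class of highest level and 38 ratios. These were ratios past 2-fold or of *Cxcl14*, *Cxcl12*, *Ccl11*, *Cxcl13*, *Cxcl1* or *Ccl19*, and *Cxcl15* in AT2s. Not followed were *Cxcl16* in DMFs, adventitial fibroblasts and AT2s, *Ccl8*, *Cxcl17*, and ratios in mesothelial or red cells. Among those followed, 2 ratios within 2-fold changed sign. *Cxcl14* in adventitial fibroblasts went to 0.86 with separate clustering, 0.43 with centred genes and 0.01 with cells named one by one. *Cxcl12* in AT2s went to -0.03 with unnamed clusters counted. Of 192 alternative counts past 2-fold, 138 stayed within 1.5 times the reported count. The count in ALMFs, 1 higher, became 2 at resolution 2, with chemokine genes kept in clustering, with unnamed clusters counted, at 20 UMIs and at 1.5-fold, and 0 after thinning to 2000 UMIs and at 200 UMIs. The 0 lower became 1 at resolution 0.5 and 2, with chemokine genes kept, with cells named one by one, with unnamed clusters counted and at 1.5-fold. In DMFs the 0 higher became 2 at resolution 0.5 and with unnamed clusters counted, and 1 with libraries clustered separately and cells named one by one, and the 1 lower became 2 with separate clustering and at 1.5-fold. In alveolar fibroblasts the 2 higher became 0 with separate clustering and 1 after thinning and at 200 UMIs, and the 0 lower became 1 with separate clustering and at 1.5-fold. In adventitial fibroblasts the 0 higher became 1 without doublets, with the mean over cells, without the top cell and at 20 UMIs, and 3 at 1.5-fold. The 1 lower became 0 at resolution 2, after thinning, without the top cell and at 200 UMIs, and 2 with separate clustering, genes centred within library, the mean over cells, 20 UMIs and 1.5-fold. In pericytes the 1 higher became 3 with separate clustering, centred genes and unnamed clusters counted, 2 with the mean over cells, 20 UMIs and 1.5-fold, and 0 after thinning and at 200 UMIs. In AT2s the 1 higher became 3 with cells named one by one, 2 with the mean over cells and without the top cell, 4 at 1.5-fold and 0 after thinning, and the 1 lower became 0 without doublets, with cells named one by one and at 200 UMIs. Depth limits the members with under 50 UMIs in a class, for which no ratio was formed.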
